A study of Oryza sativa with 10 samples.

Results

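Carbon fixation and photorespiration enzymes were followed as 40 of the 37727 rice loci in the deposited count tables. A locus was included when its deposited description held any of 12 enzyme phrases, such as Rubisco, glycolate oxidase or hydroxymethyltransferase. The rice (Oryza sativa) cultivar was Nijinokirameki, of genotype WT in every library, sampled at day 5 after flowering in 2024. Endosperm of plants under green manure (GM, hairy vetch ploughed into the paddy, no chemical fertilizer) gave 2 libraries, and endosperm under chemical fertilizer (CF, basal N, PO4 and K) gave 2. Flag leaves gave 3 libraries under GM and 3 under CF. Each endosperm replicate pooled spikelets from 3 panicles of a single plant, and endosperm was separated from the embryo while frozen. The source plants of the leaf replicates and the number of plots per regime are not stated, so p-values measure the spread between these samples, which may be technical or confined to a field.

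In the Calvin cycle, Rubisco joins CO2 to ribulose bisphosphate (RuBP), and further enzymes rebuild RuBP from the product. When Rubisco takes oxygen in place of CO2 it forms phosphoglycolate, which photorespiration returns to the cycle through the chloroplast, peroxisome and mitochondrion. The flag leaf is a main source of sugar for the rice grain, whereas the starchy endosperm imports sucrose, and a thin green pericarp surrounds the young grain.

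The members fell into 8 groups by description. Rubisco and its activase had 5 loci, the Rubisco-binding chaperonins 6, other Rubisco-linked proteins 3 and RuBP regeneration 5. Phosphoglycolate phosphatase had 3 loci, glycolate oxidase 4, glycine decarboxylase 7 and the hydroxymethyltransferases 7. Several members are not enzymes of either pathway: the chaperonins fold proteins, OsMGT3 carries magnesium, and Os01g0225500 is described as a 3-methyl-2-oxobutanoate hydroxymethyltransferase. The phrase for fructose bisphosphatase matched 0 loci, because the descriptions are spaced otherwise, and 4 further Rubisco small-subunit genes are worded without the phrases. Those loci are described with the wider pathways below. In all, 36 members had enough reads for a test in at least 1 comparison. The other 4 were close to absent: Os12g0291200, similar to a Rubisco small chain, had 1 read in the 10 libraries together, Os01g0225500 had 3, Os09g0278300 had 4 and Os04g0596900, of the phosphoribulokinase and uridine kinase family, had 10.

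Libraries held 12200510 to 25827356 counted reads, and every GM leaf library (12500336 to 15933394) was shallower than every CF leaf library (18540688 to 25827356). Starchy endosperm markers (glutelins, prolamins and starch genes) summed to 48145 to 81996 CPM (read counts scaled to a common library size) in endosperm and 20.2 to 22.3 CPM in leaf, on a scale shared by all 10 libraries. Chlorophyll a/b-binding genes, markers of green tissue, summed to 35441 to 43082 CPM in leaf. They were not absent from the dissected endosperm, where they summed to 3224 to 5188 CPM.

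The first comparison set endosperm against flag leaf under the same fertilizer. Most members were lower in endosperm, 13 of the 36 tested by over 10-fold under CF, with the Rubisco activase, the phosphoribulokinase and the glycine decarboxylase P protein lower by 46.6- to 134-fold, while a Rubisco small subunit, a pair of chaperonin alpha loci and 3 H-protein loci were higher there. Under CF, 24 of 36 members tested were called lower in endosperm and 10 higher, at an adjusted p under 0.05 in edgeR's quasi-likelihood test. Among all 25035 genes tested the same call was made for 38.1% in the lower direction and 45.0% in the higher direction. Under GM, 24 members were called lower and 11 higher, against 37.7% and 44.6% of all genes. The 10 members called higher under CF were also called higher under GM, and 23 were called lower under both regimes. The call changed with the regime for 3 members: Os03g0293900 was called lower under CF alone, SHMT2 was called lower under GM alone, and Os03g0662000 was called higher under GM alone. The difference between the regimes was itself not called for any of the 3. The median over all genes was 0.15 on the log2 scale under CF. In bulk tissue, fewer cells of a type and less RNA per cell cannot be told apart.

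**Figure D1:**
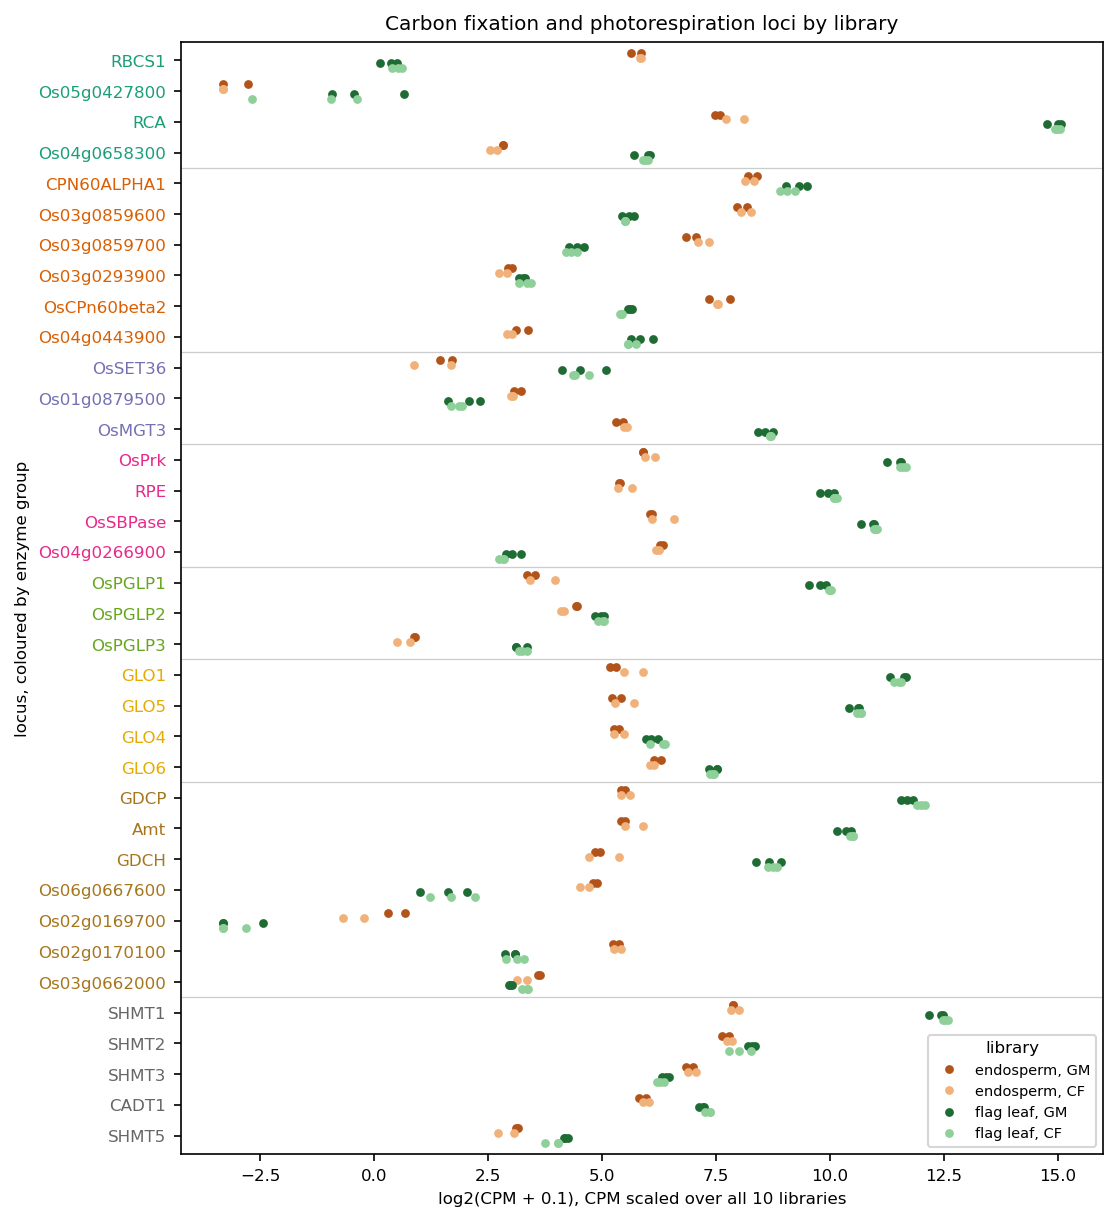
The 36 tested loci run down the page, coloured by enzyme group, and each dot is a library at its log2(CPM + 0.1) on the scale shared by all 10 libraries. Leaf and endosperm dots stand far apart for RCA, GDCP and GLO1 and in the reverse order for RBCS1, while GM and CF dots of a tissue mostly lie together. Positions of different loci cannot be ranked, since CPM is not corrected for transcript length.

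RCA (Os11g0707000), the activase that removes inhibitory sugar phosphates from Rubisco, had 278 and 210 CPM in CF endosperm, against 34060, 31294 and 32515 CPM in CF leaf. The groups did not overlap, and the level in endosperm was 134-fold lower (log2 fold change −7.06, SE 0.24, adjusted p = 4.0e-13). RCA alone took 2.64 to 3.08% of all counted reads in leaf libraries. A second activase-like locus, Os04g0658300, had 6.35 and 5.73 CPM in CF endosperm, against 64.6, 61.5 and 59.2 CPM in CF leaf. It was 10.2-fold lower in endosperm (SE 0.13 on the log2 scale, adjusted p = 1.5e-12).

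RBCS1 (Os02g0152400), a Rubisco small subunit known in rice for expression outside the leaf blade, ran the other way. It had 57.3 and 57.9 CPM in CF endosperm, against 1.33, 1.43 and 1.22 CPM in CF leaf, a 43.4-fold difference (log2 fold change 5.44, SE 0.13, adjusted p = 1.1e-14). Under GM the difference was 46.6-fold, with 49.7 and 58.2 CPM in endosperm and 1.31, 1.19 and 0.990 CPM in leaf. RBCS1 took 8.88 to 12.5% of the reads of 5 small-subunit genes in endosperm and 0.0077 to 0.014% in leaf. Os05g0427800, similar to the Rubisco large chain, had 1 read in endosperm and 55 in leaf. Its call as lower in endosperm rests on those few reads and was lost under CF without CF endosperm replicate 1 (adjusted p = 0.0622), and a nuclear locus with this wording may share reads with the chloroplast gene or its copies.

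The chaperonins, which fold the Rubisco large subunit and other plastid proteins, were split by locus. CPN60ALPHA1 (Os12g0277500) had 323 and 282 CPM in CF endosperm, against 598, 531 and 481 CPM in CF leaf, a log2 fold change of −0.83 (SE 0.14, adjusted p = 5.0e-05). A pair of similarly described alpha loci was higher in endosperm. Os03g0859600 had 308 and 264 CPM in CF endosperm, against 45.0, 45.4 and 45.1 CPM in CF leaf (log2 fold change 2.66, SE 0.10, adjusted p = 1.6e-12), and Os03g0859700 had a log2 fold change of 2.91 (SE 0.11). Neither pair of groups overlapped. Reads that fit more than 1 of such like loci may be missing from counts of unique reads, so each value carries that uncertainty. Of the beta chaperonins, OsCPn60beta2 (Os02g0102900) had a log2 fold change of 2.12 (SE 0.11) and Os04g0443900 of −2.67 (SE 0.15). In all, 3 of 6 chaperonin loci were called higher and 3 lower under CF, beside 45.0% and 38.1% of all genes tested. The smallest effect was that of Os03g0293900 at −0.52 (adjusted p = 0.00334). That call was lost without CF endosperm replicate 1 (−0.42, adjusted p = 0.0542), and the locus was not called under GM (−0.27, adjusted p = 0.0838).

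Among the other Rubisco-linked proteins, OsMGT3 (Os03g0684400), a magnesium transporter described as acting on the chloroplast, had 44.5 and 46.6 CPM in CF endosperm, against 416, 412 and 415 CPM in CF leaf. The difference was 9.10-fold (SE 0.12 on the log2 scale, adjusted p = 8.8e-13). OsSET36 (Os09g0411650), similar to a Rubisco large subunit methyltransferase, was 8.94-fold lower in endosperm, and Os01g0879500, a RuBisCO-cytochrome methylase domain protein, was 2.34-fold higher.

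All 3 well-described RuBP-regenerating enzymes were lower in endosperm. OsPrk (Os02g0698000), the phosphoribulokinase that makes RuBP, had 72.0 and 61.6 CPM in CF endosperm, against 3259, 2968 and 3126 CPM in CF leaf. It was 46.6-fold lower in endosperm (log2 fold change −5.54, SE 0.17, adjusted p = 1.1e-13). OsSBPase (Os04g0234600), the sedoheptulose bisphosphatase of the cycle, was 25.0-fold lower and the epimerase RPE (Os03g0169100) 24.3-fold lower. The fourth locus tested, Os04g0266900, is described by a transketolase C-terminal-like domain, which other thiamine-dependent enzymes also carry. It had 76.6 and 72.7 CPM in CF endosperm, against 6.61, 7.10 and 7.03 CPM in CF leaf, and was 10.8-fold higher in endosperm (SE 0.10 on the log2 scale, adjusted p = 6.2e-14).

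**Figure D2:**
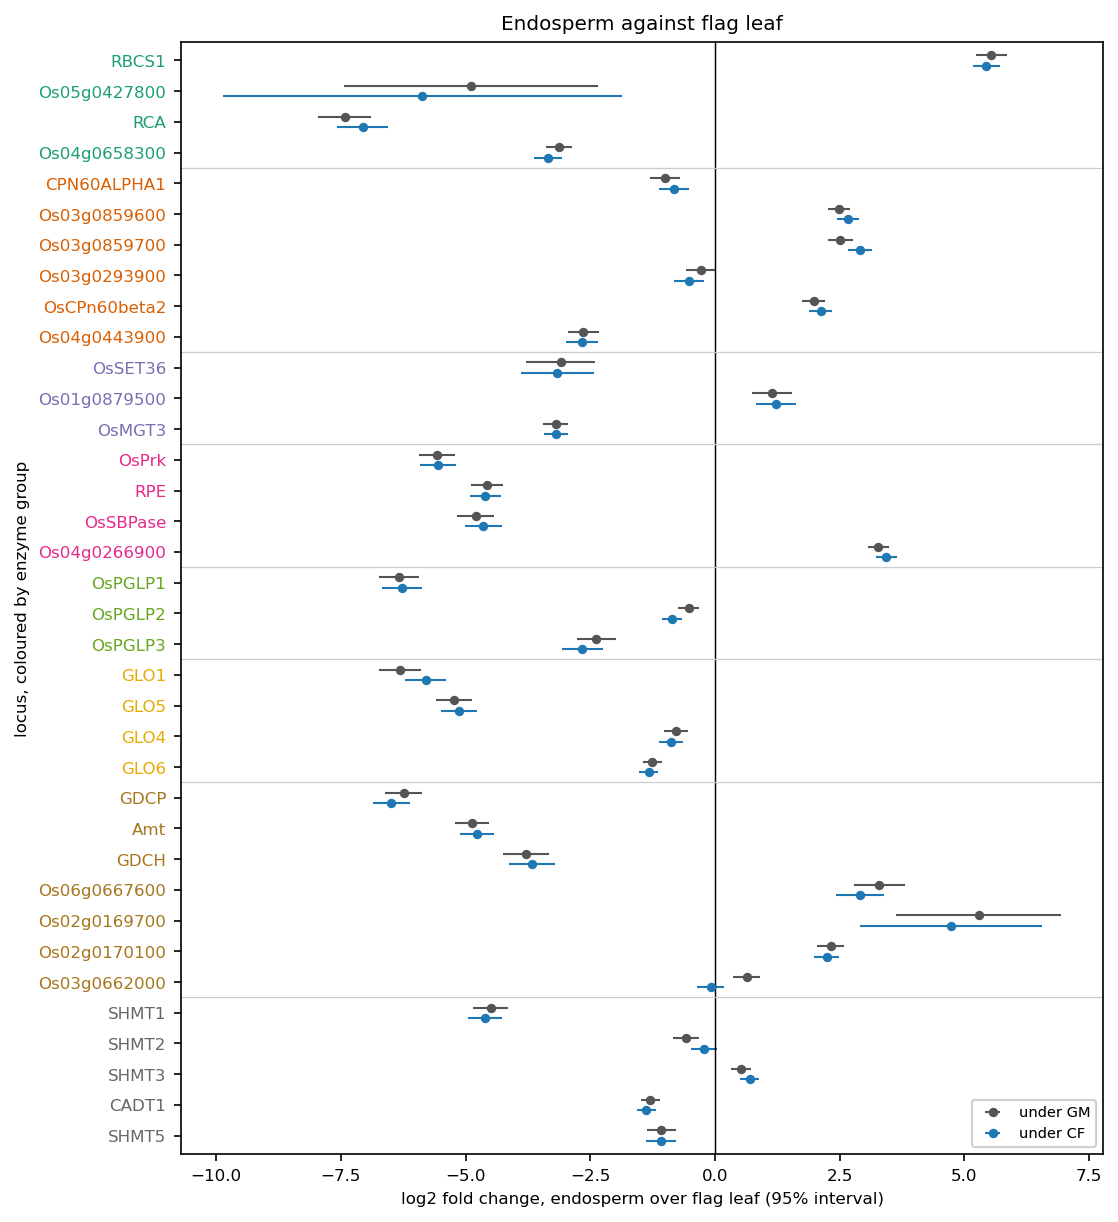
Each dot is the log2 fold change of a locus, endosperm over flag leaf, with its 95% interval, under GM (grey, above) and under CF (blue, below). The effects run from −7.06 for RCA to 5.44 for RBCS1 under CF. Os03g0662000 lies at 0.63 under GM and −0.09 under CF, and the wide intervals belong to Os05g0427800 and Os02g0169700, which had few reads.

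Photorespiration begins with phosphoglycolate phosphatase, and all 3 of its loci were lower in endosperm, to very unequal degrees. OsPGLP1 (Os04g0490800) had 15.5 and 10.6 CPM in CF endosperm, against 1043, 1009 and 1021 CPM in CF leaf, a 77.4-fold difference (log2 fold change −6.27, SE 0.19, adjusted p = 8.9e-14). OsPGLP2 (Os09g0261300) had 17.9 and 17.1 CPM in CF endosperm, against 30.2, 32.4 and 32.9 CPM in CF leaf, a log2 fold change of −0.86 (SE 0.10). OsPGLP3 (Os12g0420000) was 6.32-fold lower. OsPGLP1 took 30.0 to 44.3% of the family's reads in endosperm and 94.7 to 96.3% in leaf.

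Glycolate oxidase, the peroxisomal enzyme that turns glycolate into glyoxylate, showed the same unequal pattern. GLO1 (Os03g0786100) had 59.5 and 44.3 CPM in CF endosperm, against 2941, 3037 and 2734 CPM in CF leaf. It was 55.8-fold lower in endosperm (log2 fold change −5.80, SE 0.19, adjusted p = 2.6e-13). GLO5 (Os07g0152900) was 35.2-fold lower, whereas GLO6 (Os08g0198700) was 2.51-fold and GLO4 1.85-fold lower. The deposited symbol columns disagree on which of Os07g0152900 and Os07g0616500 is GLO4, and the committee (CGSNL) symbols are used here. GLO1 took 19.4 to 26.2% of the family's reads in endosperm and 60.4 to 63.8% in leaf, while GLO6 took 31.1 to 39.2% in endosperm and 3.37 to 3.92% in leaf.

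Glycine decarboxylase, a mitochondrial complex of P, T, H and L proteins that releases CO2 from glycine, also serves one-carbon metabolism outside green tissue. Its P protein GDCP (Os06g0611900) had 48.7 and 42.5 CPM in CF endosperm, against 4375, 3848 and 4118 CPM in CF leaf, a 90.0-fold difference (log2 fold change −6.49, SE 0.17, adjusted p = 3.1e-14). The T protein Amt (Os04g0623800) was 27.4-fold lower and the H protein GDCH (Os10g0516100) 12.7-fold lower. The other H-protein loci went the opposite way. Os02g0170100 had 42.6 and 38.5 CPM in CF endosperm, against 8.67, 7.28 and 9.60 CPM in CF leaf (4.73-fold higher, SE 0.12 on the log2 scale, adjusted p = 6.4e-11), and Os06g0667600 was 7.55-fold higher. Os02g0169700, of the same family, had 83 reads in the 4 endosperm libraries and 2 in the 6 leaf libraries.

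Within the H proteins, GDCH took 29.6 to 37.5% of reads in endosperm and 96.4 to 97.8% in leaf. The endosperm reads were otherwise divided between Os06g0667600 (23.7 to 29.1%) and Os02g0170100 (38.4 to 43.5%). The L protein Os03g0662000, a dihydrolipoyl dehydrogenase of the kind that other mitochondrial complexes share, was not called between tissues under CF. It had 8.74 and 10.1 CPM in CF endosperm, against 10.3, 9.37 and 10.1 CPM in CF leaf, a log2 fold change of −0.09 (95% interval −0.36 to 0.19, adjusted p = 0.539), and its groups overlapped. Under GM it was called higher in endosperm, with 12.4 and 12.0 CPM in endosperm, against 7.69, 8.04 and 7.85 CPM in leaf and no overlap (log2 fold change 0.63, SE 0.13, adjusted p = 0.000309).

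Serine hydroxymethyltransferase makes serine from the glycine that the decarboxylase does not split. SHMT1 (Os03g0738400), described as regulating photorespiration, had 259 and 228 CPM in CF endosperm, against 6127, 5764 and 5936 CPM in CF leaf. It was 24.4-fold lower in endosperm (log2 fold change −4.61, SE 0.16, adjusted p = 6.0e-13). SHMT3 (Os12g0409000) was higher in endosperm by 1.62-fold, CADT1 (Os01g0874900), described as a negative regulator of sulphate uptake, was 2.59-fold lower, and SHMT5 (Os05g0429000) was 2.11-fold lower. SHMT2 (Os11g0455800) had 232 and 214 CPM in CF endosperm, against 307, 257 and 220 CPM in CF leaf, and was not called under CF (log2 fold change −0.23, 95% interval −0.49 to 0.03, adjusted p = 0.0969). It was called at −0.37 without CF leaf replicate 3 (adjusted p = 0.00953) and at −0.27 without GM leaf replicate 1 or 2 (adjusted p = 0.0360 and 0.0400). Under GM SHMT2 was called lower, with 220 and 199 CPM in endosperm, against 296, 313 and 327 CPM in leaf and no overlap (log2 fold change −0.57, SE 0.12, adjusted p = 0.000486). SHMT1 took 36.0 to 37.5% of the family's reads in endosperm and 89.3 to 92.5% in leaf.

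**Figure D3:**
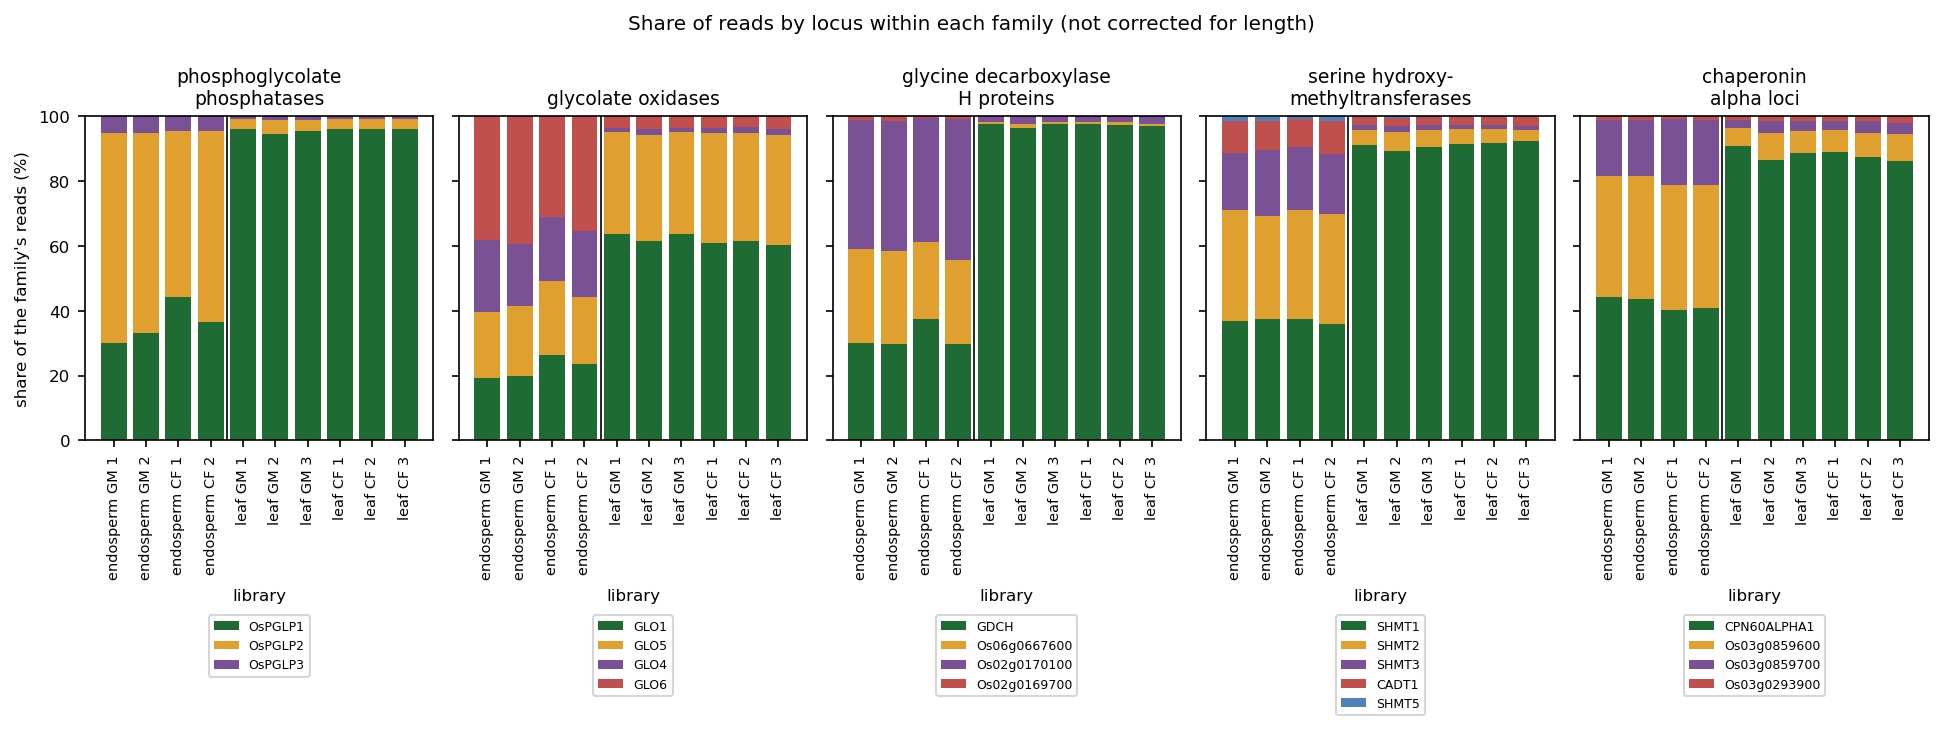
Stacked bars give the percentage of a family's reads that each locus took in each library, for 5 families, with endosperm libraries left of the black line and leaf libraries right of it. A single locus, in green, took most of the reads in leaf (60.4 to 97.8%) and 19.4 to 44.4% in endosperm, and these are shares of reads, not corrected for transcript length.

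In these 5 families the locus with most leaf reads was thus also the locus that differed most between tissues in the lower direction. The same leaf counts enter both, so a match is favoured in advance and is not independent support. For the chaperonin alpha loci that locus was CPN60ALPHA1, with 40.3 to 44.4% of reads in endosperm and 86.4 to 90.9% in leaf. Over all 40 members, the share of a library's counted reads was 0.296 to 0.313% in endosperm and 4.60 to 5.40% in leaf. Under GM and CF these shares overlapped in both tissues: 0.297 to 0.302% in GM endosperm and 0.296 to 0.313% in CF endosperm, and 4.60 to 5.29% in GM leaf and 5.12 to 5.40% in CF leaf.

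The second comparison asked how transcript levels under green manure differed from those under chemical fertilizer in the developing endosperm. None of the 35 members tested was called. The 2 with the smallest p-values were GLO1 and RCA, both at lower values under GM. In edgeR's quasi-likelihood test 8 members had an unadjusted p under 0.05 and 0 were called, and DESeq2 also called 0. Of all 23094 genes tested in endosperm, 1.26% were called. The median log2 fold change of the members was −0.08, beside 0.0026 over all genes, with 15 members above 0 and 20 below. GM and CF libraries did not overlap for 17 members, 8 higher and 9 lower under GM, while 46.3% of all genes tested had no overlap.

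GLO1 had 41.1 and 45.8 CPM in GM endosperm, against 68.5 and 52.9 CPM in CF endosperm, on the scale of the endosperm libraries. Both GM libraries were below both CF libraries, with a log2 fold change of −0.49 (SE 0.13, 95% interval −0.77 to −0.21, adjusted p = 0.111). With a single library left out the value ran from −0.65 (without CF replicate 2) to −0.29 (without CF replicate 1). It was −0.57 without GM replicate 2. With every library kept, GLO1 was called only by edgeR with no filter on low counts (−0.48, adjusted p = 0.00150), where 1370 of 31011 genes were called. Calls are not given for the fits that left a lone library in a group.

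RCA had 204 and 223 CPM in GM endosperm, against 320 and 251 CPM in CF endosperm. The groups did not overlap, and the log2 fold change was −0.42 (SE 0.13, 95% interval −0.71 to −0.13, adjusted p = 0.181). RCA was called by edgeR with no filter on low counts (−0.41, adjusted p = 0.0261), where 1370 of 31011 genes were called. Without CF replicate 1 the value was −0.23. The chaperonin Os03g0859700 had 132 and 156 CPM in GM endosperm, against 188 and 165 CPM in CF endosperm (log2 fold change −0.30, SE 0.12, adjusted p = 0.274). Both GM libraries were below both CF libraries.

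Of the 5 members with the smallest p-values in endosperm, OsPGLP2 and Os02g0169700 had higher values under GM. OsPGLP2 had 25.0 and 24.6 CPM in GM endosperm, against 20.6 and 20.5 CPM in CF endosperm, and its replicates lay close together (log2 fold change 0.28, SE 0.11, adjusted p = 0.286). The H-protein locus Os02g0169700 had 1.31 and 1.73 CPM in GM endosperm, against 0.605 and 0.908 CPM in CF endosperm (log2 fold change 1.03, SE 0.43, adjusted p = 0.293). It was the 1 member whose 95% interval, 0.10 to 1.96, reached beyond a 2-fold change.

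Markers of other tissues in the grain moved in the same direction as GLO1 and RCA. Chlorophyll a/b-binding genes summed to 3715 and 3729 CPM in GM endosperm, against 5975 and 4424 CPM in CF endosperm. Of 20 such loci, 15 were tested, 12 had values below 0, 0 were called and the median was −0.37. Embryo and aleurone markers (oleosins and related) summed to 434 to 526 CPM in GM endosperm and 832 to 929 CPM in CF endosperm, with 3 of 6 called lower. Over all genes tested in endosperm 1.26% were called, and 285 of those 292 genes were lower under GM. The call of the oleosin Os09g0324000 (log2 fold change −0.76, adjusted p = 0.0108) was lost without CF replicate 1 (adjusted p = 0.0737) and in the fit of both tissues (adjusted p = 0.0861). Of the other 2, the seed oleosin Os04g0546500 had 286 and 237 CPM in GM endosperm, against 457 and 511 CPM in CF endosperm (log2 fold change −0.89, SE 0.13, adjusted p = 0.00573).

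Pericarp and nucellus markers (4 loci, 3 tested, 0 called) had a median of −0.40, and their sums were 1161 to 1325 CPM in GM endosperm and 1582 to 1646 CPM in CF endosperm. Starchy endosperm markers (50 loci, 35 tested, 0 called) had a median of −0.35, with overlapping sums of 55269 to 75315 CPM in GM endosperm and 74262 to 94447 CPM in CF endosperm. Of the members called lower in endosperm than in leaf under CF, 23 were tested here, and 12 of these had their highest endosperm value in CF replicate 1. The number was 2 in CF replicate 2, 3 in GM replicate 1 and 6 in GM replicate 2. The same share over all genes was not counted, so these numbers are not read as particular to the members. The part of these tissues in the values of GLO1 and RCA was not tested.

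**Figure D4:**
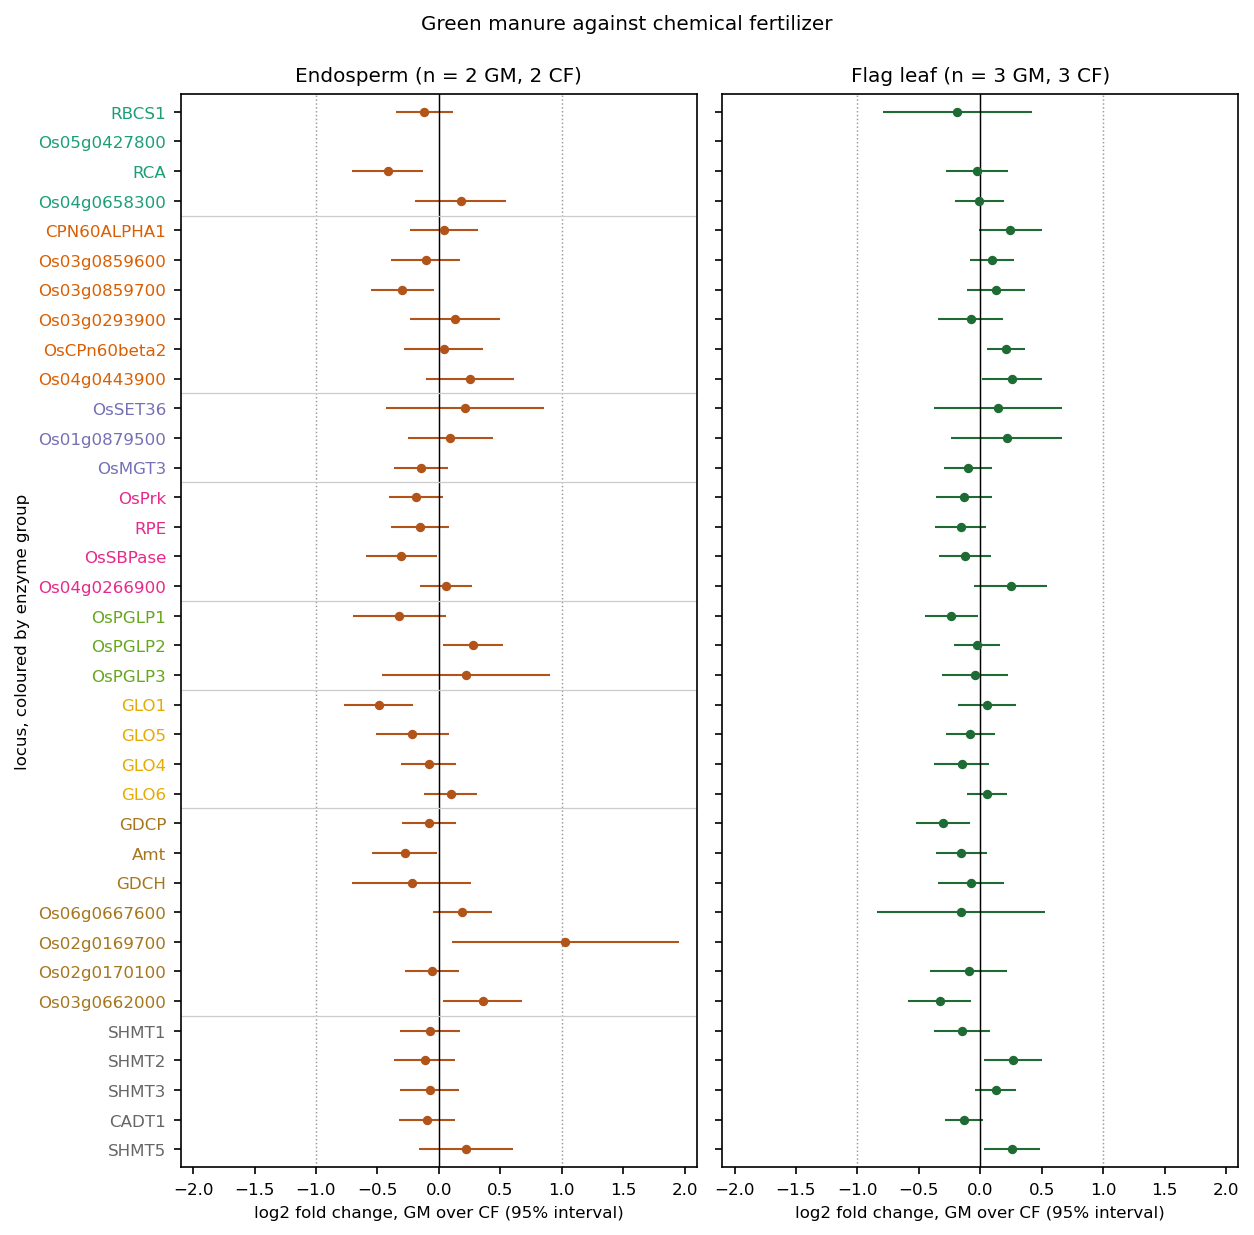
Dots are log2 fold changes, GM over CF, with 95% intervals, in endosperm (left) and flag leaf (right), and dotted lines mark a 2-fold change. In endosperm 34 of 35 intervals and in leaf 34 of 34 lie between the dotted lines, and several exclude 0 before adjustment for the number of genes tested.

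The size of effect that these libraries leave possible can be read from the intervals. In endosperm 34 of 35 intervals lay within a 2-fold change in either direction and 24 within 1.5-fold. In leaf the counts were 34 and 29 of 34. These intervals are per locus and not widened for the number of loci.

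In the flag leaf, the third comparison, 0 of 34 members were called by edgeR, 7 had an unadjusted p under 0.05, and DESeq2 called 1, GDCP. Of all 20208 genes tested in leaf, edgeR called 2.94%, and DESeq2 called 832 of them. The median of the members was −0.06, beside 0.0015 over all genes, with 13 above 0 and 21 below. GM and CF leaves did not overlap for 9 members, 3 higher and 6 lower under GM, against 22.3% of all genes.

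GDCP had 3005, 2756 and 3264 CPM in GM leaf, against 3924, 3476 and 3741 CPM in CF leaf, on the scale of the leaf libraries. Every GM leaf was below every CF leaf, with a log2 fold change of −0.30 (SE 0.10, 95% interval −0.52 to −0.08, adjusted p = 0.138). DESeq2 gave −0.31 with an adjusted p of 0.0251. With single libraries left out the edgeR value ran from −0.37 to −0.25 and stayed uncalled (adjusted p = 0.156 to 0.393). All 6 glycine decarboxylase loci tested in leaf had values below 0, with a median of −0.16, and none of them was called. The L protein Os03g0662000 had 6.99, 7.34 and 7.08 CPM in GM leaf, against 9.27, 8.46 and 9.18 CPM in CF leaf (log2 fold change −0.33, SE 0.12, adjusted p = 0.168), again with no overlap.

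The other members among the 5 smallest p-values in leaf had higher values under GM. OsCPn60beta2 had 44.4, 46.3 and 42.7 CPM in GM leaf, against 38.6, 38.7 and 38.0 CPM in CF leaf, with no overlap (log2 fold change 0.21, SE 0.07, adjusted p = 0.150). SHMT2 had 269, 285 and 295 CPM in GM leaf, against 276, 232 and 200 CPM in CF leaf, where CF replicate 1 lay among the GM leaves (log2 fold change 0.26, SE 0.11, adjusted p = 0.239). SHMT5 had 16.1, 17.2 and 16.5 CPM in GM leaf, against 14.6, 12.1 and 14.8 CPM in CF leaf (log2 fold change 0.26, SE 0.11, adjusted p = 0.241). Of the 6 chaperonin loci, 5 had values above 0, with a median of 0.17, and none was called.

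The groups overlapped in leaf for RCA and GLO1. RCA had 29986, 25497 and 31298 CPM in GM leaf, against 30550, 28269 and 29534 CPM in CF leaf (log2 fold change −0.03, 95% interval −0.28 to 0.23), and GLO1 had a log2 fold change of 0.05 (−0.18 to 0.29). SHMT1 had 5197, 4250 and 5041 CPM in GM leaf, against 5496, 5206 and 5392 CPM in CF leaf. Every GM leaf was below every CF leaf, with a log2 fold change of −0.15 (95% interval −0.38 to 0.08, adjusted p = 0.514). Of the members called lower in endosperm than in leaf under CF, 23 were tested here. For 16 of these, GM replicate 2 held the lowest leaf value. How many of all genes were lowest in that library was not counted, so the number is not read as particular to the members. Without GM replicate 2 the median of the members was −0.01, and still none was called. Read totals differed between the regimes in leaf, and with all libraries thinned to equal depth the median was −0.05 and 0 members were called.

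**Figure D5:**
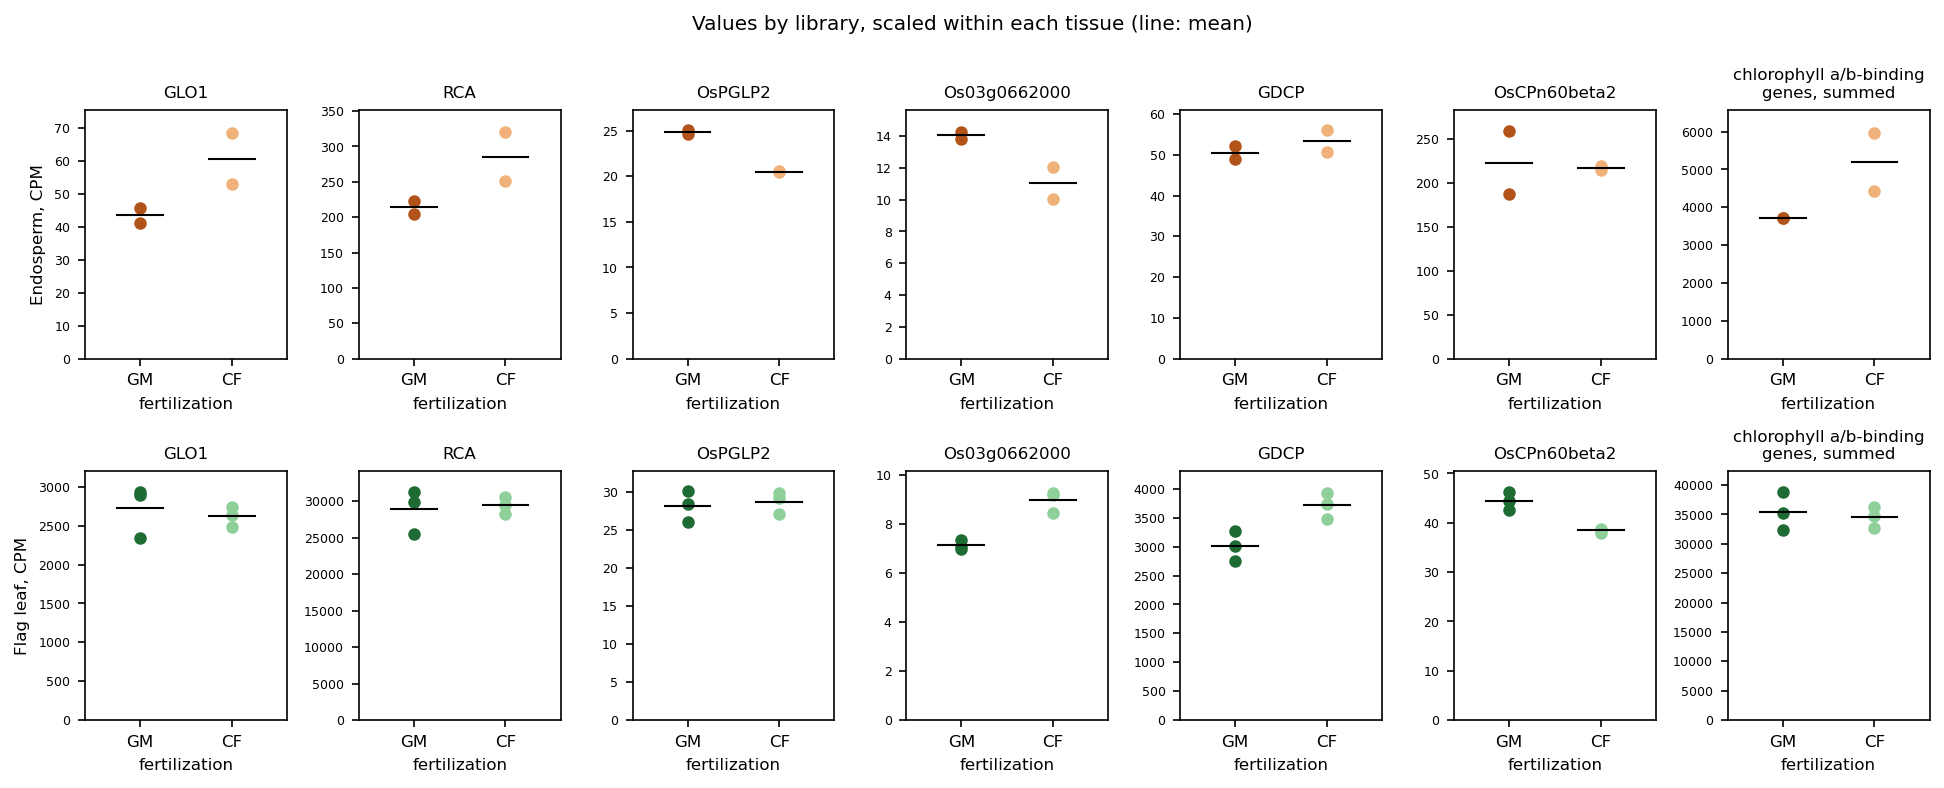
Each dot is a library's CPM, scaled within its tissue, for 6 loci and for the summed chlorophyll a/b-binding genes, with GM left of CF, endosperm in the top row and leaf in the bottom row, and a line at each mean. GLO1, RCA and the chlorophyll a/b-binding sum are lower in both GM endosperm libraries than in both CF ones, while in leaf their groups overlap, and GDCP is lower in all 3 GM leaves.

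The last comparison tested the difference of the GM effect, endosperm minus leaf, in a fit of all 10 libraries. Of 36 members 0 were called by edgeR, 4 had an unadjusted p under 0.05, and DESeq2 called 0. Of all 25035 genes tested, 0.615% were called. The smallest p belonged to Os03g0662000, which had 14.3 and 13.8 CPM in GM endosperm, against 10.1 and 12.0 CPM in CF endosperm (log2 fold change 0.36, SE 0.15, adjusted p = 0.296). Its values were thus higher under GM in endosperm and lower under GM in leaf, with no overlap in either tissue. The difference was 0.72 on the log2 scale (SE 0.18, 95% interval 0.33 to 1.11, adjusted p = 0.109).

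The next smallest p-values belonged to OsPGLP2 (difference 0.33, SE 0.13, adjusted p = 0.348), the chaperonin Os03g0859700 (−0.39, SE 0.16, adjusted p = 0.355), GLO1 (−0.51, SE 0.21, adjusted p = 0.355) and SHMT2 (−0.35, SE 0.17, adjusted p = 0.444). None of these passed the threshold. The interval of the difference lay within a 2-fold change for 31 of 36 members and within 1.5-fold for 20, so a larger difference in response between the tissues could not be bounded for the others, among them OsSET36 and Os06g0667600.

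Other genes of the same pathways were grouped by description and are set beside the 1.26% of all genes called in endosperm and 2.94% in leaf. Of the other Calvin cycle steps (29 loci, such as phosphoglycerate kinase, aldolase and triosephosphate isomerase), 0 of 27 tested were called in endosperm (median −0.07) and 1 of 26, or 3.85%, in leaf (median 0.11). This list also holds loci described as cytosolic or cytoplasmic forms, so its counts and medians are not of the Calvin cycle alone. Between tissues under CF, 11 of its 28 loci tested were called higher in endosperm and 16 lower. The called locus, Os02g0169300, is similar to a cytosolic phosphoglycerate kinase, the glycolytic form of the enzyme. It had 168, 192 and 174 CPM in GM leaf, against 141, 146 and 141 CPM in CF leaf, and was higher under GM with a log2 fold change of 0.32 (SE 0.08, adjusted p = 0.0467). The call was lost with 5 of the 6 leaf libraries left out in turn, the exception being GM replicate 1 (adjusted p = 0.0973 to 0.231 in the 5), under relative log expression scaling (adjusted p = 0.0551) and in the fit of both tissues (adjusted p = 0.375).

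Of the other photorespiration steps (19 loci, such as hydroxypyruvate reductase, catalase and glutamine synthetase), 1 of 19 tested, or 5.26%, was called in endosperm (median −0.15) and 0 of 17 in leaf (median 0.0011). The called locus was the catalase Os03g0131200, an enzyme that breaks down hydrogen peroxide such as glycolate oxidase produces. It had 42.4 and 46.2 CPM in GM endosperm, against 74.2 and 61.7 CPM in CF endosperm, and was lower under GM with a log2 fold change of −0.62 (SE 0.11, adjusted p = 0.0178). The call was lost without CF replicate 1 (−0.48, adjusted p = 0.143), with the replicate number as a block (adjusted p = 0.0604) and in the fit of both tissues (adjusted p = 0.119). Like GLO1, this catalase was far more abundant in leaf, with 3886 to 4929 CPM in GM leaf and 3896 to 4341 CPM in CF leaf.

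Genes of C4-type carboxylation (22 loci) had 0 of 13 called in endosperm (median −0.16) and 1 of 11, or 9.09%, in leaf (median −0.02). Each of these shares rests on a single locus. The called locus was Os05g0405000, the pyruvate orthophosphate dikinase, which in rice endosperm is linked to starch metabolism. It had 727, 713 and 758 CPM in GM leaf, against 885, 1038 and 1057 CPM in CF leaf, and was lower under GM with no overlap (log2 fold change −0.44, SE 0.09, adjusted p = 0.0300). The call was lost without CF replicate 2 or 3 (adjusted p = 0.145 and 0.174), without GM replicate 3 (adjusted p = 0.0714) and in the fit of both tissues (adjusted p = 0.190). Photosystem and light-harvesting genes (70 loci) had 0 of 54 called in endosperm, where 47 were below 0 with a median of −0.35, and 0 of 57 in leaf, with a median of 0.0087.

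The 8 loci of the same enzymes that the phrases missed, collected after the values were seen, were RBCS, RBCS3, RBCS4, RBCS5, the transketolase OsTK and 3 fructose bisphosphatases. Of these, 7 were lower in endosperm than in leaf under CF, from −2.99 for OsTK to −5.91 for RBCS5, and the exception was the cytosolic OscFBP2 (−0.09). RBCS3 had 264 and 296 CPM in GM endosperm, against 362 and 277 CPM in CF endosperm, with overlap and a log2 fold change of −0.19 (SE 0.14, adjusted p = 0.569). None of the 8 was called in endosperm or in leaf between GM and CF by edgeR, with adjusted p of at least 0.155 in endosperm and 0.145 in leaf. All 8 endosperm values were below 0 (median −0.34), the lowest being that of RBCS5 (−0.49, SE 0.14). The leaf median was 0.03, with 4 of the 8 below 0. RBCS, RBCS3 and RBCS4 had leaf values of 0.33, 0.40 and 0.32 (SE 0.15, 0.13 and 0.12), while RBCS5 had −0.18 (SE 0.11). The difference of the GM effect was not called by edgeR for any of the 8 (adjusted p of at least 0.383).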

How the data were processed

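Libraries were directional and made from poly(A) RNA, per the labels' protocols. The authors deposited a table per tissue with unnormalized counts per locus, of reads unique to exons, per the labels' descriptions of the tables. Per the submitters' processing notes the genome was IRGSP-1.0. Sources used here do not name the aligner, the counter or the strand setting, so reads of overlapping or antisense genes cannot be told apart.

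Members were matched by description, and symbols were taken from the deposited tables. The members and gene lists were chosen with earlier results of these data known, and list wording was adapted to the annotation. Named with values were the 5 members of smallest p in each comparison of GM with CF or of its difference, the 3 of highest mean CPM per group, and all called higher in endosperm under CF.

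Counts were filtered with filterByExpr (minimum count 10), scaled by TMM and tested with edgeR 4.0.16 (robust quasi-likelihood F test, limma 3.58.1, R 4.3.3), each tissue alone for GM against CF and all 10 libraries together otherwise. P-values were adjusted by Benjamini-Hochberg over all genes tested and called under 0.05. The SE is the log2 fold change divided by the square root of F, and intervals are 95% t intervals. Levels are TMM-scaled CPM, within a tissue for GM against CF and over all 10 libraries between tissues. Alternatives were relative log expression (RLE) scaling, no filter, a mean of at least 5 CPM, DESeq2 1.42.0, equal depth, both tissues in a single fit, the replicate number as a block, and each library left out. The tests were checked on simulated counts. Tables and plots used Python 3.11.15, pandas 2.3.3, scipy 1.17.1 and matplotlib 3.10.9. Intervals cover the spread between these libraries. No pair of libraries of a group agreed within sampling noise (chi-square per gene of 5.02 to 12.2).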

Additional observations from a re-analysis of the deposited data

Results flagged for a closer look

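Os03g0662000, the glycine decarboxylase L protein or dihydrolipoyl dehydrogenase, was flagged because GM and CF did not overlap and lay in opposite directions in the 2 tissues. No overlap was found for 46.3% of all genes tested in endosperm and 22.3% in leaf. How many of all genes also had opposite directions was not counted. Its values were higher in both GM endosperm libraries than in both CF ones (log2 fold change 0.36) and lower in all 3 GM leaves than in all 3 CF leaves (−0.33). The difference of the effects was tested and did not pass the threshold (0.72, SE 0.18, edgeR adjusted p = 0.109). With single libraries left out it ran from 0.61 to 0.82, with adjusted p from 0.108 to 0.433. The level was low, at 6.99 to 14.3 CPM in the 10 libraries.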

How the results depend on the processing

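Over all genes, 292 were called in endosperm between GM and CF, 594 in leaf and 154 for the difference of the effect. With no filter on low counts these were 1370, 987 and 236. For the oleosin Os04g0546500 the endosperm test had 62022 degrees of freedom with no filter, against 12.1 in the main fit. It had 23609 without GM replicate 1 and 23932 without GM replicate 2. More calls in these 3 fits need not mean larger effects. The endosperm count was 168 with the replicate number as a block, the leaf count 335 in the fit of both tissues, and the count for the difference 352 in DESeq2. With single libraries left out the endosperm count ran from 135 (without CF replicate 1) to 944 (without GM replicate 2) and was 694 without GM replicate 1. The leaf count ran from 40 (without CF replicate 2) to 933 (without GM replicate 1), with 70 when CF replicate 3 was left out and 313 when GM replicate 2 was. For the difference it ran from 80 (without endosperm CF replicate 1) to 204, and was 88 without leaf CF replicate 2 and 100 without leaf GM replicate 3.

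With every endosperm library kept, members called in endosperm numbered 0, but 2 of 39 with no filter (GLO1 and RCA), where 1370 of 31011 genes were called. Calls of members are not given for the endosperm fits that left a lone library in a group. In leaf the number was 0, but 1 of 34 in DESeq2 (GDCP), where 832 of 20208 genes were called. It was 0 with any leaf library left out of the leaf fit. For the difference it was 0 in edgeR's main fit and in DESeq2. Between tissues, 32 to 35 members were called under CF and 35 to 35 under GM with a library left out, among 19527 to 21145 and 19872 to 20938 genes. The uncalled value of Os03g0662000 between tissues under CF, −0.09, changed sign to 0.018 with the filter of 5 CPM, and ran from −0.18 (without endosperm CF replicate 2) to 0.023 (without endosperm CF replicate 1). The causes were not tested. Where an endosperm library was left out, the lone library of its group was assumed to vary like the others. Same-numbered samples did not deviate together (correlations from −0.0053 to 0.036), so numbers were not read as pairs. The replicate block called 0 members in endosperm, leaf or the difference. With 2 endosperm libraries per regime and few reads for 4 members, small effects could not be measured.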

Other observations

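A further 3 loci are described or named as the Rubisco large subunit without the wording used for the members, and were looked up after their values were seen. OsrbcL1 (Os10g0356000) had 3.57 and 3.95 CPM in GM endosperm, against 25.7 and 12.3 CPM in CF endosperm, a log2 fold change of −2.36 (SE 0.43, edgeR adjusted p = 0.152). The groups did not overlap, and the locus was not called. Os01g0791033 and Os12g0207600 had log2 fold changes of −2.40 and −2.39, and in leaf the 3 loci ranged from −0.02 to 0.15. The large subunit is encoded in the chloroplast genome, so reads at these loci may be shared with it or with each other, and they are not independent.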
